A study of Rattus norvegicus with 18 samples.

Results

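Solute carriers are membrane proteins that move amino acids, sugars, metal ions, phosphate, bicarbonate, nucleosides, vitamins and metabolic intermediates across the plasma membrane and the membranes of organelles. They work as facilitators, as cotransporters or as exchangers, and draw on solute gradients rather than on ATP hydrolysis of their own. In the lung they are known for the uptake of phosphate by alveolar type II cells, the removal of serotonin and adenosine from the blood, and the supply of amino acids. The genes described here are those whose symbol on the array had the form Slc, a family number and the letter a, with Slc2a1, Slc2a3, Slc16a3, Slc4a1, Slc12a2 and Slc30a1 left aside. A gene was kept if a probe set of it exceeded a signal of 174 in 3 or more of the 18 arrays, and was represented by the passing probe set of highest mean log2(signal + 25). This gave 140 genes of the 212 that the array named singly, and 72 were not kept. Of the 140, 91 exceeded the minimum in all 18 arrays and 49 did not. The symbol pattern also took in Slc4a1ap and Slc7a6os, which are named for a carrier gene and are not carriers themselves. Both are counted among the 140 genes, called carriers below, and in their classes.

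Male Sprague-Dawley rats were anaesthetised and ventilated, the hilum of the left lung was clamped in situ for 2 h of warm ischemia, and the lungs were taken after 30 min or 3 h of reperfusion. Each of the 4 operated groups held 3 lungs: clamped left lungs at 30 min and at 3 h, and the unclamped right lungs of operated rats at the same times. The 6 control lungs came from 6 rats and were taken right after anaesthesia and sacrifice, without clamping or reperfusion, and their side was not given. All clamped lungs were left lungs, so clamping and side cannot be told apart. A difference of an operated lung from control also holds thoracotomy, ventilation and time under anaesthesia, which cannot be told apart from clamping in the left lungs. Whole lung RNA was hybridised to Affymetrix rat 230A arrays, 1 lung an array. In such tissue RNA, fewer cells of a type and less RNA per cell cannot be told apart.

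Each array had a 2% trimmed mean signal of 500.1, with array medians between 232.3 and 283.8. The ratio of the actin probe set at the 3′ end to that at the 5′ end, a measure of RNA integrity, was 4.81 and 2.3 in left lungs at 30 min, replicates 1 and 3, and 2.93 in right lungs at 30 min, replicate 3. It was 1.31 to 1.78 elsewhere. The mean log2 signal of 7 measured type II cell markers of 8 listed was 12.48 to 12.58 in controls, so that the labelled tissue carried its defining epithelial genes, and 11.59 to 12.17 in left lungs at 3 h. The mean of 8 measured cardiac muscle markers of 12 listed was 6.2 to 8.83 in controls, 6.24 to 6.69 in left and 8.19 to 10.03 in right lungs at 3 h. For 7 measured neutrophil markers of 11 listed the control range was 7.72 to 8.44, and operated lungs lay between 8.77 and 10.92. For 5 measured erythroid markers of 8 listed it was 9.77 to 10.16 in controls and 10.9 to 11.39 in right lungs at 30 min. For 4 measured lymphocyte markers of 6 listed it was 8.41 to 8.83 in controls and 7.19 to 8.32 in operated lungs, with 2 called lower in left lungs at 30 min and 4 in each other group. For 3 measured airway markers of 4 listed it was 10.34 to 11.06 in controls and 9.62 to 10.33 in left lungs at 3 h, where 1 was called lower. These counts stand beside 9.52%, 24.1%, 6.33% and 12.6% of all genes called lower, in the order left 30 min, left 3 h, right 30 min and right 3 h. The part of these markers in the results on carriers was not tested. The mean of the cardiac list per array was also added to the model as a covariate. At 3 h that mean did not overlap between left and right lungs, so it cannot be told apart from clamping or side. A call can then end through a larger standard error without a smaller difference.

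Against control, 18 carrier genes were higher and 12 lower in left lungs at 30 min by limma at a Benjamini-Hochberg adjusted p under 0.05, where 8.64% and 9.52% of the 7728 genes tested were called higher and lower. Left lungs at 3 h had 25 higher and 36 lower, beside 13.5% and 24.1% of all genes. Right lungs had 15 higher and 7 lower at 30 min, beside 5.93% and 6.33%, and 24 higher and 14 lower at 3 h, beside 7.75% and 12.6%. As shares of the 140, the higher genes made up 12.9%, 17.9%, 10.7% and 17.1% and the lower genes 8.57%, 25.7%, 5% and 10%, in the same order. The shares of lower genes lay near those over all genes, and whether the carriers differ from other genes was not tested. The median log2 difference of the carriers was -0.03, -0.15, -0.01 and 0.02, beside -0.06, -0.13, -0.04 and -0.05 over all genes. The 4 comparisons share the same 6 control lungs, so a gene seen in several of them has not been measured independently each time.

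The balance of higher and lower calls depended on the scaling of the arrays. After subtraction of the median of each array, the left lungs had 22 higher and 6 lower carriers at 30 min and 32 and 14 at 3 h, and the right lungs 17 and 4 at 30 min and 27 and 7 at 3 h. The share of calls that were higher thereby moved from 60% to 78.6%, from 41% to 69.6%, from 68.2% to 81% and from 63.2% to 79.4%. Under quantile normalization the share was 65.5% and 60.4% in left lungs and 69.6% and 75% in right lungs. The median of all probe sets in left lungs at 3 h lay 0.12 below control on the log2 scale, so falls of that size in that group equal the shift of the arrays as a whole. The rises of carriers below held their calls under both scalings on the probe set used, except where stated. Single arrays also moved the counts. Without left replicate 1 at 3 h, 28 carriers were called in left lungs at 3 h, against 61 (37.6% of all genes). Without replicate 1 or without replicate 2 of right lungs at 30 min 13 were called there, against 22 (12.3%). Without replicate 3 of right lungs at 3 h 18 were called, against 38 (20.4%). Without the 3 arrays of high actin ratio, which leaves 1 left lung at 30 min, 11 carriers were called in left lungs at 30 min, against 30 (18.2%). With the cardiac marker mean of each array in the model 22 were called in right lungs at 3 h. The shares of all genes in brackets are those of the main fit. No share of all genes was taken under any alternative, here or below. Whether the carriers moved more than other genes was therefore not tested. Scalings, filters, variance models, covariates and left-out arrays that ended the call of a carrier on the probe set used are named beside it. For Slc38a10 and Slc49a4 only the result under median centring is given. For second probe sets and for genes that are not carriers such limits are not given. Their calls are thus not shown to hold under the alternatives. No filter means that all probe sets were tested, and the cardiac covariate is that marker mean. The high-actin arrays are the 3 arrays above, and single lungs left out are given by group and replicate.

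**Figure D1:**
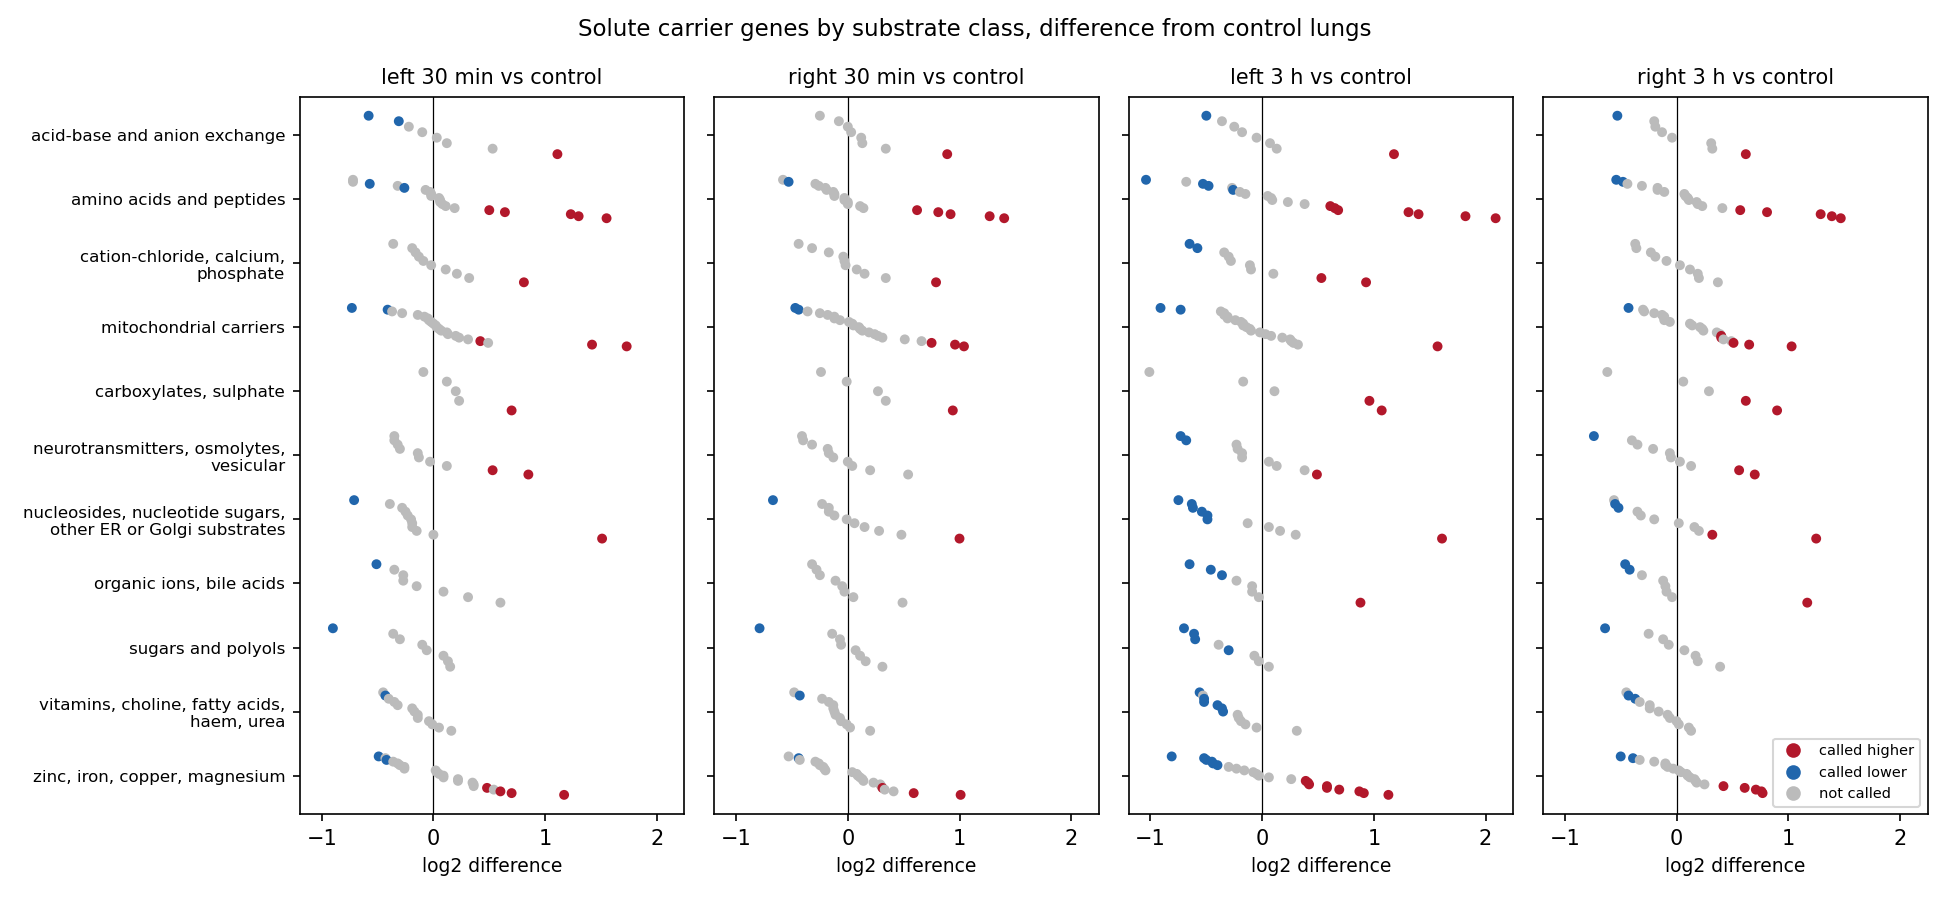
Log2 difference of each of the 140 carrier genes from the 6 control lungs (horizontal axes, log2 of signal + 25), in rows by substrate class and in 4 panels by operated group of 3 lungs; the 1 unclassed gene is not drawn. Red and blue points passed limma at an adjusted p under 0.05 as higher or lower, grey points did not, and points within a row are spread vertically in order of their value. Amino acid, metal and mitochondrial carriers hold most of the large rises, while sugar and vitamin carriers have no red point in any panel on the probe sets drawn. Under median centring the 4 blue points of the sugar class in left lungs at 3 h were no longer called.

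Amino acid and peptide carriers held the largest rise against control in left lungs at 3 h and in both groups of right lungs. Of the 20 genes, Slc7a6os counted, 5 were higher and 2 lower in left lungs at 30 min, 7 and 4 at 3 h. Right lungs had 5 and 1 at 30 min, and 5 and 2 at 3 h. The class counts here and below stand beside 8.64% and 9.52%, 13.5% and 24.1%, 5.93% and 6.33%, and 7.75% and 12.6% of all genes called higher and lower. Whether any class differs from all genes was not tested. With median centring the higher counts stayed at 5, 7, 5 and 5, and the lower counts were 1, 1, 1 and 0. The rises were those of Slc7a1, Slc7a5, Slc7a6 and Slc1a3 in all 4 groups, of Slc38a2 in 3, of Slc3a2 in both groups at 3 h and of Slc1a1 in left lungs at 3 h. The falls were in the peptide carriers Slc15a2 and Slc15a4, in Slc38a5 and in Slc38a10, whose difference of -0.26 in left lungs at 30 min and at 3 h was not called with median centring.

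Slc7a1 (probe set 1368391_at) encodes CAT1, the main uptake route for arginine and lysine. Its signal was 237 to 298 (median 266) in the 6 controls, against 672, 954 and 866 in left lungs at 30 min, and 1703, 1141 and 901 in those at 3 h. In right lungs it was 887, 1011 and 443 at 30 min and 781, 367 and 1338 at 3 h. Each of the 12 operated lungs lay above every control, with right replicate 2 at 3 h the nearest. The log2 difference with limma's standard error was 1.55 ± 0.30 (adjusted p = 0.0019) and 2.09 ± 0.30 (adjusted p = 8.2e-05) in left lungs, the latter a 4.26-fold difference, and 1.40 ± 0.30 (adjusted p = 0.0058) and 1.39 ± 0.30 (adjusted p = 0.004) in right lungs. A second probe set of the gene, 1368392_at, gave smaller differences of 0.89 (adjusted p = 0.019), 1.29 (0.00094), 0.77 (0.051) and 0.62 (0.087), in the order left 30 min, left 3 h, right 30 min and right 3 h, so no call was made on it in right lungs.

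The promoter of Slc7a1 is printed because the region just before its start holds TGATGNAA, which was found in 4 of 120 carriers with a RefSeq promoter. These are the core letters of the ATF4 and C/EBP composite element known from amino acid response genes. RefSeq places it on the plus strand of GRCr8 at chr12:11664238-11664537, from 250 bases before the start to 50 bases after it. The capitals mark the match, whose first base is at -30.
Slc7a1: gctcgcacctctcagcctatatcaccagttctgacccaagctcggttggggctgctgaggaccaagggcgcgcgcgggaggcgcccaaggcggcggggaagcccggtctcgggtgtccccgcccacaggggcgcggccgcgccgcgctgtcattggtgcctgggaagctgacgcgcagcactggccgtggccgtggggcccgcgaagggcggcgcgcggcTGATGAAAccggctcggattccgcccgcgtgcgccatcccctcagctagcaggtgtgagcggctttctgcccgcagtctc
The other matches were in Slc38a1 and Slc35a2, which were not called in any comparison with control, and in Slc49a4. Slc49a4 fell by 0.36 (adjusted p = 0.012) in left lungs at 3 h, a call that ended under median centring. Of 18 carriers with a promoter that were higher in left lungs at 3 h, 1 held the motif. The motif was found in 3.33% of the 120 carriers, in 1.8% of 6460 tested genes with a promoter and in 3.82% of all 27457 promoters. A match of letters is a description and not a site of binding.

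Slc7a5 (1387280_a_at) encodes LAT1, which brings in leucine and other large neutral amino acids in exchange for glutamine. Its signal was 141 to 274 (median 208) in controls. Left lungs gave 429, 700.4 and 521 at 30 min and 1202, 658 and 612 at 3 h, and right lungs 557, 344 and 358 at 30 min and 344, 246 and 633 at 3 h. Left lungs and right lungs at 30 min lay wholly above the controls, and right replicate 2 at 3 h lay among them. The log2 difference was 1.30 ± 0.27 (adjusted p = 0.003) and 1.82 ± 0.27 (adjusted p = 9.6e-05) in left lungs at 30 min and 3 h. Right lungs differed by 0.92 ± 0.27 (adjusted p = 0.031) and 0.81 ± 0.27 (adjusted p = 0.039). The call at 30 min in right lungs ended under no filter, and without control replicate 2 or 5 or right replicate 1, or without the high-actin arrays (adjusted p = 0.051 to 0.16). At 3 h in right lungs it ended under the cardiac covariate or no filter, and without control replicate 1, 2, 5 or 6 or right replicate 1 or 3 (adjusted p = 0.057 to 0.27).

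Slc7a6 (1373629_at) encodes y+LAT2, which exchanges cationic for neutral amino acids. Its control signal was 243 to 312 (median 288). Left lungs gave 954, 538 and 646 at 30 min and 644, 994 and 616 at 3 h, and right lungs 912, 647 and 608 at 30 min and 907, 757 and 805 at 3 h. No operated lung overlapped the controls. The log2 difference was 1.23 ± 0.18 (adjusted p = 0.00016) and 1.31 ± 0.18 (adjusted p = 4.2e-05) in left lungs at 30 min and 3 h. The right lungs had 1.27 ± 0.18 (adjusted p = 0.00018) and 1.47 ± 0.18 (adjusted p = 2.6e-05). Slc7a6os, named for lying on the opposite strand of that gene, was not called, with log2 differences of 0.06, 0.08, 0.11 and 0.08. Slc3a2 (1398771_at) encodes the heavy chain that carries Slc7a5 and Slc7a6 to the cell surface. It read 2360.1 to 2953 (median 2589) in controls. Left lungs gave 3062, 3109 and 2782 at 30 min and 4089, 4415 and 3871 at 3 h, and right lungs 3175, 2780.5 and 2703 at 30 min and 3527, 4194 and 3978 at 3 h. Its differences at 30 min were 0.19 and 0.14 and did not pass, whereas both groups at 3 h lay above every control, by 0.65 ± 0.10 (adjusted p = 0.00012) in left and 0.57 ± 0.10 (adjusted p = 0.00073) in right lungs.

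Slc1a3 (1368565_at), the glutamate and aspartate transporter EAAT1, read 401 to 538 (median 479) in controls. In left lungs it read 666, 789.5 and 596 at 30 min and 1210.1, 1492 and 1176 at 3 h, and in right lungs 880.1, 704 and 978 at 30 min and 1620.0, 968 and 1086 at 3 h. All operated lungs exceeded all controls, and left lungs at 3 h exceeded those at 30 min. The difference was 0.50 ± 0.16 (adjusted p = 0.032) and 1.40 ± 0.16 (adjusted p = 8.7e-06) in left lungs at 30 min and 3 h. In right lungs the values were 0.81 ± 0.16 (adjusted p = 0.0028) and 1.29 ± 0.16 (adjusted p = 3e-05). The other probe sets of the gene gave less. On probe set 1371130_at the differences were 0.21, 0.25, 0.41 (adjusted p = 0.04) and 0.29, and on 1388064_a_at -0.35, 0.43, 0.09 and 0.77 (adjusted p = 0.016), in the order left 30 min, left 3 h, right 30 min and right 3 h. The call at 30 min in left lungs ended under the cardiac covariate, and without control replicate 2, 3 or 4 or left replicate 1 or 2, or without the high-actin arrays (adjusted p = 0.055 to 0.16).

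Slc38a2 (1370286_at) encodes SNAT2, a sodium-coupled carrier of small neutral amino acids known to be induced when they are scarce. It read 992 to 1289 (median 1125) in controls. Left lungs gave 2319.8, 1664 and 1388 at 30 min and 2347, 1540.3 and 1611 at 3 h, and right lungs 2266, 1523 and 1467 at 30 min and 1704, 1158 and 1668 at 3 h. Replicate 1 was the highest array in each operated group, and right replicate 2 at 3 h lay among the controls. The difference was 0.64 ± 0.19 (adjusted p = 0.021) and 0.68 ± 0.19 (adjusted p = 0.0084) in left lungs, 0.62 ± 0.19 (adjusted p = 0.036) in right lungs at 30 min and 0.41 at 3 h, which did not pass. The call of left lungs at 30 min ended without left replicate 1, or without the high-actin arrays (adjusted p = 0.16 to 0.21), and that at 3 h without left replicate 1 (adjusted p = 0.085). The call of right lungs ended under no filter, and without control replicate 1, 2, 3, 5 or 6 or right replicate 1 or 2 (adjusted p = 0.05 to 0.21). Slc1a5, the glutamine carrier ASCT2, overlapped the controls in every group, with differences from -0.12 to 0.38. Slc1a1, a further glutamate transporter, rose by 0.61 in left lungs at 3 h, a call that ended without left replicate 1 (adjusted p = 0.14). On its other probe set, 1387932_at, the difference there was 0.56 (adjusted p = 0.091), which did not pass.

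**Figure D2:**
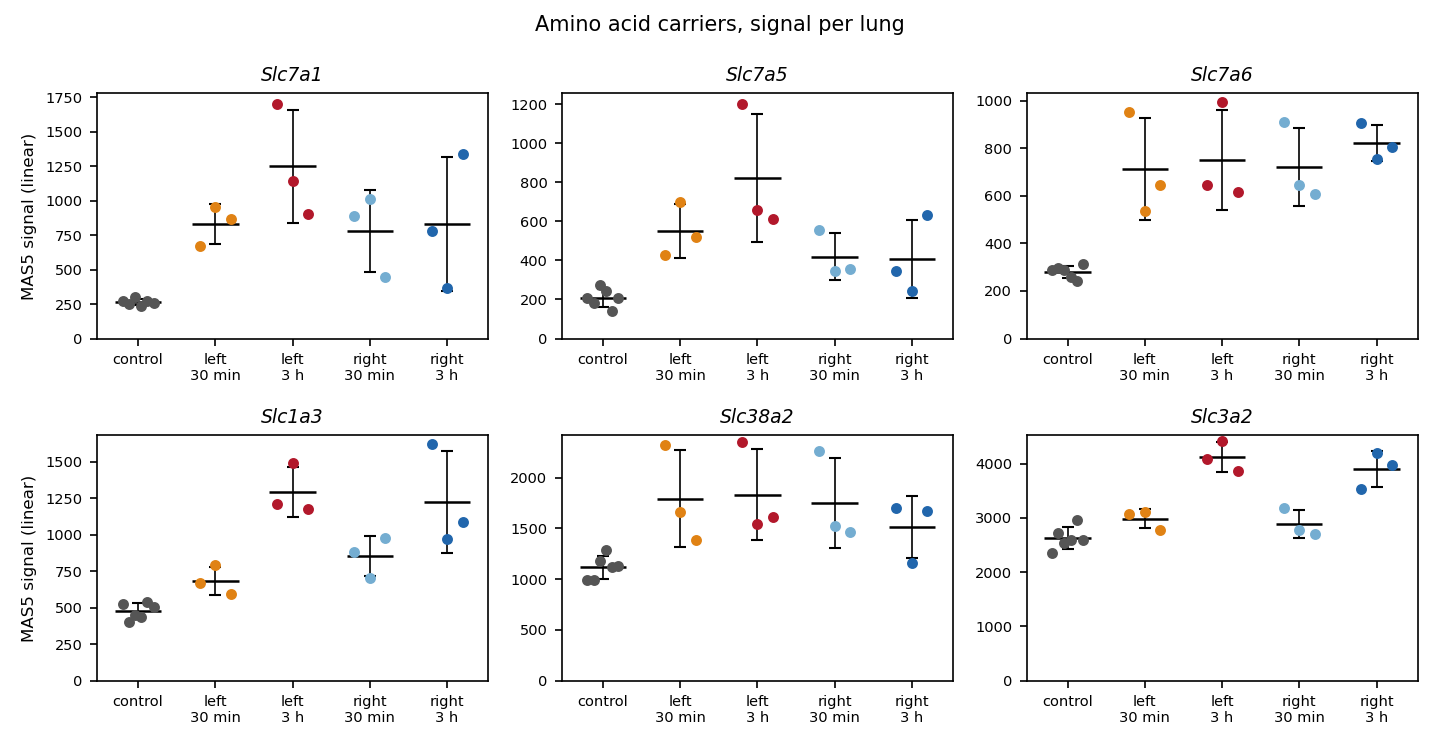
Deposited signal (linear vertical axes from 0) of 6 amino acid carriers in each of the 18 lungs, by group on the horizontal axis; bars are means and whiskers standard deviations over 6 control and 3 operated lungs a group. Slc7a1, Slc7a6 and Slc1a3 lie above the controls in all operated lungs, while Slc3a2 lies clear of them at 3 h and overlaps them at 30 min.

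Among the peptide carriers, Slc15a2 (1398255_at), which encodes PEPT2, a proton-driven carrier of di- and tripeptides found in alveolar type II cells, read 347 to 546 (median 408) in controls and 122, 261 and 213 in left lungs at 3 h, below every control. It fell there by 1.04 ± 0.30 (adjusted p = 0.013), and the call ended without left replicate 1 (adjusted p = 0.11). In the other groups it read 403, 142 and 246 in left lungs at 30 min, 180.5, 263 and 409 in right lungs at 30 min, with 558, 292 and 219 in those at 3 h, with differences of -0.72, -0.58 and -0.31 that did not pass. The type II cell markers were lower in left lungs at 3 h, with 4 of 7 called lower beside 24.1% of all genes. Their part in the fall was not tested. Slc15a4, a lysosomal carrier of peptides and histidine, read 442 to 683 (median 553) in controls and 347, 391 and 345 in left lungs at 30 min, with no overlap. It fell by 0.57 ± 0.16 (adjusted p = 0.016) there, by 0.53 ± 0.16 (adjusted p = 0.013) at 3 h, and by 0.53 ± 0.16 (adjusted p = 0.033) and 0.48 ± 0.16 (adjusted p = 0.038) in right lungs. The call in left lungs at 30 min ended without left replicate 1 or 3, or without the high-actin arrays (adjusted p = 0.06 to 0.3), and that at 3 h under median centring or quantile normalization, and without left replicate 1 or 2 (adjusted p = 0.054 to 0.081). In right lungs the call at 30 min ended under no filter, and without control replicate 3, 4 or 5 or right replicate 1 or 2, or without the high-actin arrays (adjusted p = 0.05 to 0.12), and that at 3 h under the cardiac covariate, median centring, no filter or quantile normalization, and without control replicate 3, 4, 5 or 6 or right replicate 2 or 3, or without the high-actin arrays (adjusted p = 0.052 to 0.19). Slc38a5, a glutamine and histidine carrier, fell by 0.48 ± 0.17 (adjusted p = 0.029) in left lungs at 3 h and 0.54 ± 0.17 (adjusted p = 0.028) in right lungs at 3 h. The first call ended under median centring or quantile normalization, and without control replicate 2 or 6 or left replicate 1 or 2 (adjusted p = 0.054 to 0.19). The second ended under the cardiac covariate or median centring, and without control replicate 2 or 6 or right replicate 1 or 2 (adjusted p = 0.053 to 0.17).

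Genes of the amino acid response were taken from a list of which 30 were measured. They comprise the transcription factor Atf4, aminoacyl-tRNA synthetases, initiation factors and enzymes of serine, asparagine and folate metabolism. Against control 7 were higher and 0 lower in left lungs at 30 min, 17 and 1 in left lungs at 3 h, 4 and 0 in right lungs at 30 min and 5 and 1 in right lungs at 3 h. Over all genes the shares called higher and lower were 8.64% and 9.52%, 13.5% and 24.1%, 5.93% and 6.33%, and 7.75% and 12.6%, in the same order. The median log2 difference of the list was 0.23, 0.49, 0.17 and 0.15 in the order left 30 min, left 3 h, right 30 min and right 3 h. Atf4 rose by 0.8 ± 0.13 (SE, adjusted p = 0.00041) in left lungs at 30 min and by 1.33 ± 0.13 (adjusted p = 1.9e-06) at 3 h, from a mean signal of 2744 in controls to 4764 and 6972. In right lungs it rose by 0.8 ± 0.13 (adjusted p = 0.00059) and 0.71 ± 0.13 (adjusted p = 0.001). Mthfd2, of mitochondrial folate metabolism, rose by 0.88 ± 0.18 (adjusted p = 0.0027) in left lungs at 30 min, and Yars1, the tyrosyl-tRNA synthetase, by 1.28 ± 0.2 (adjusted p = 0.00016) at 3 h. Mthfd2 also rose in right lungs, by 0.72 (adjusted p = 0.014) at 30 min and 0.65 (adjusted p = 0.018) at 3 h. Asns, asparagine synthetase, rose by 0.65 ± 0.17 (adjusted p = 0.013) in right lungs at 3 h. Left against right at 3 h, 5 of the 30 were higher and 0 lower, beside 1.75% and 0.621% of all genes.

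Of the 23 members of the Slc25 family, most of which sit in the inner mitochondrial membrane, 3 were higher and 2 lower than control in left lungs at 30 min and 1 and 2 in left lungs at 3 h. Right lungs had 3 higher and 2 lower at 30 min, then 5 and 1 at 3 h. Of all genes 8.64% and 9.52%, 13.5% and 24.1%, 5.93% and 6.33%, and 7.75% and 12.6% were called higher and lower in these 4 groups. Slc25a25 and Slc25a33 made up the large rises, and the falls were led by Slc25a42. With median centring the higher counts were 5, 4, 4 and 7 and the lower counts 1, 2, 1 and 1, in the order left 30 min, left 3 h, right 30 min and right 3 h.

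Slc25a25 (1371754_at) encodes a calcium-regulated carrier that exchanges ATP-Mg for phosphate and so adjusts the adenine nucleotide pool of mitochondria. Its signal was 124 to 301 (median 161) in controls, of which 2 exceeded the minimum of 174. It read 447, 692 and 816 in left lungs at 30 min, and 819.8, 406 and 538 in those at 3 h, all above the highest control. In right lungs it read 456, 379.8 and 271 at 30 min and 163, 206 and 273 at 3 h, where all 3 lay within the control range. The difference was 1.73 ± 0.27 (adjusted p = 0.00026) at 30 min in left lungs, a 3.32-fold difference and the largest rise of the 140 genes in that group, and 1.57 ± 0.27 (adjusted p = 0.00029) at 3 h. In right lungs it was 0.96 ± 0.27 (adjusted p = 0.024) at 30 min and 0.24 at 3 h, which did not pass. The call in right lungs at 30 min ended without right replicate 1 or 2 (adjusted p = 0.073 to 0.12). Left exceeded right lungs by 1.33 ± 0.31 (adjusted p = 0.032) at 3 h. At 30 min the left minus right difference was 0.77 and did not pass.

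Slc25a33 (1373282_at) encodes a carrier of pyrimidine nucleotides needed for mitochondrial DNA and RNA. It read 264 to 431 (median 341) in controls, 1110.0, 850.2 and 918 in left lungs at 30 min, and 333, 411 and 529.5 in those at 3 h. In right lungs it read 876, 659 and 669 at 30 min and 827, 743 and 612 at 3 h. Left lungs at 3 h overlapped the controls, and the other operated groups lay wholly above them. The difference was 1.42 ± 0.17 (adjusted p = 2.8e-05) in left lungs at 30 min and 0.28 at 3 h, which did not pass, against 1.04 ± 0.17 (adjusted p = 0.00066) and 1.03 ± 0.17 (adjusted p = 0.0005) in right lungs. Within left lungs it fell by 1.15 ± 0.20 (adjusted p = 0.0048) from 30 min to 3 h. That call ended without the 3 arrays of high actin ratio (adjusted p = 0.35), of which 2 are left lungs at 30 min. Left minus right at 3 h was -0.76 (adjusted p = 0.052), and the change of the left minus right difference from 30 min to 3 h was -1.13 (adjusted p = 0.2), so a different course in left and right lungs was not shown by the test.

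The promoters of Slc25a25 and Slc25a33 are shown because both hold TGACGTCA, the full cAMP response element, in their 300 bases, and both genes rose in left lungs at 30 min. RefSeq places them on the minus strand of GRCr8, that of Slc25a25 at chr3:36116532-36116831 and that of Slc25a33 at chr5:165502924-165503223. The capitals mark the match, with its first base at -158 and -84 from the start.
Slc25a25: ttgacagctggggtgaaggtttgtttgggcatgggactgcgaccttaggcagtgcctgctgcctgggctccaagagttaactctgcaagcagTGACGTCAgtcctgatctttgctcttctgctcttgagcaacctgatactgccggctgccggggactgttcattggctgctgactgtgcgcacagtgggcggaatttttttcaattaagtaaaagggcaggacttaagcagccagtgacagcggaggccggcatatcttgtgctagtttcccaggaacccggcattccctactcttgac
Slc25a33: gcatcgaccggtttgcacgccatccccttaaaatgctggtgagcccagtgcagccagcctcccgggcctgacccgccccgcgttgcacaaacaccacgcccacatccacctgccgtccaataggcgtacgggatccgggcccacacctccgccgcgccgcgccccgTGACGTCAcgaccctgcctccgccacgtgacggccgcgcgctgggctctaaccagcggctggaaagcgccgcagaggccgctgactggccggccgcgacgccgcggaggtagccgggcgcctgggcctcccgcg
The element was found in 4 of 120 carriers (3.33%), the others being Slc18a2 and Slc38a6, which were not called in any comparison with control. It was found in 3.02% of 6460 tested genes and in 1.91% of all 27457 promoters. Of 18 carriers with a promoter that were higher in left lungs at 3 h, 1 held it. The share among carriers higher at 30 min was not taken. Here too a match of letters is a description and not a site of binding, and a part of the element in the rises was not tested.

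Slc25a42 (1388579_at), which brings coenzyme A into mitochondria, read 347 to 419.9 (median 398) in controls. Left lungs gave 209.9, 218 and 249 at 30 min and 191, 186 and 213 at 3 h, and right lungs 292, 270.3 and 264 at 30 min and 366, 276 and 226 at 3 h. All left lungs lay below all controls, as did right lungs at 30 min, while right replicate 1 at 3 h overlapped them. It fell by 0.73 ± 0.12 (adjusted p = 0.00043) and 0.91 ± 0.12 (adjusted p = 3.6e-05) in left lungs at 30 min and 3 h. In right lungs the differences were -0.47 ± 0.12 (adjusted p = 0.016) and -0.43 ± 0.12 (adjusted p = 0.017), calls that held under both scalings. In right lungs the call at 30 min ended without right replicate 2 or 3, or without the high-actin arrays (adjusted p = 0.051 to 0.062), and that at 3 h ended without right replicate 2 or 3 (adjusted p = 0.054 to 0.13). Slc25a11, the oxoglutarate and malate exchanger, read 1172 to 1352 (median 1249.6) in controls and 589, 794 and 876 in left lungs at 3 h, with no overlap, and fell by 0.73 ± 0.12 (adjusted p = 0.00029). Slc25a20, the acylcarnitine carrier, fell by 0.44 ± 0.14 (adjusted p = 0.049) in right lungs at 30 min, a call that ended under the cardiac covariate, a trended robust prior, median centring, no filter or quantile normalization, and without any single array, or without the high-actin arrays (adjusted p = 0.05 to 0.14).

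Slc25a15, the ornithine carrier of the urea cycle, read 237 to 268 (median 259) in controls, 179, 226 and 188 in left lungs at 3 h and 458, 274 and 417 in right lungs at 3 h. Left lungs at 3 h lay below the controls and right lungs above them. The difference was -0.34 (adjusted p = 0.14) in left and 0.51 ± 0.17 (adjusted p = 0.045) in right lungs, a call that ended under the cardiac covariate or no filter, and without control replicate 1, 2, 3, 4, 5 or 6 or right replicate 1 or 3 (adjusted p = 0.059 to 0.2). With the covariate the difference in right lungs was 0.55 ± 0.20 (adjusted p = 0.081). Slc25a4, the adenine nucleotide translocase of heart and skeletal muscle, rose by 0.40 ± 0.12 (adjusted p = 0.02) in right lungs at 3 h, where it read 2976, 3812 and 2470.4 against 2095 to 2652 (median 2272) in controls. The cardiac marker mean was highest in the same lungs. Right replicate 3 at 3 h lay among the controls. With the cardiac covariate the difference was 0.3 (adjusted p = 0.12), and the call also ended under quantile normalization (adjusted p = 0.059) and without right replicate 2 (adjusted p = 0.14). Slc25a5, the translocase of most other tissues, read 3991 to 4182 (median 4155) in controls and 4853, 5407 and 6176 in the same group, with no overlap. It rose by 0.40 ± 0.10 (adjusted p = 0.0085), a call that ended without right replicate 3 (adjusted p = 0.061). Slc25a39, a mitochondrial glutathione carrier abundant in erythroid cells, read 1281, 1703 and 3385 in right lungs at 30 min against 1006 to 1487 (median 1198) in controls. Its difference of 0.66 (adjusted p = 0.06) did not pass, and 4 of 5 erythroid markers were called higher in that group, beside 5.93% of all genes.

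**Figure D3:**
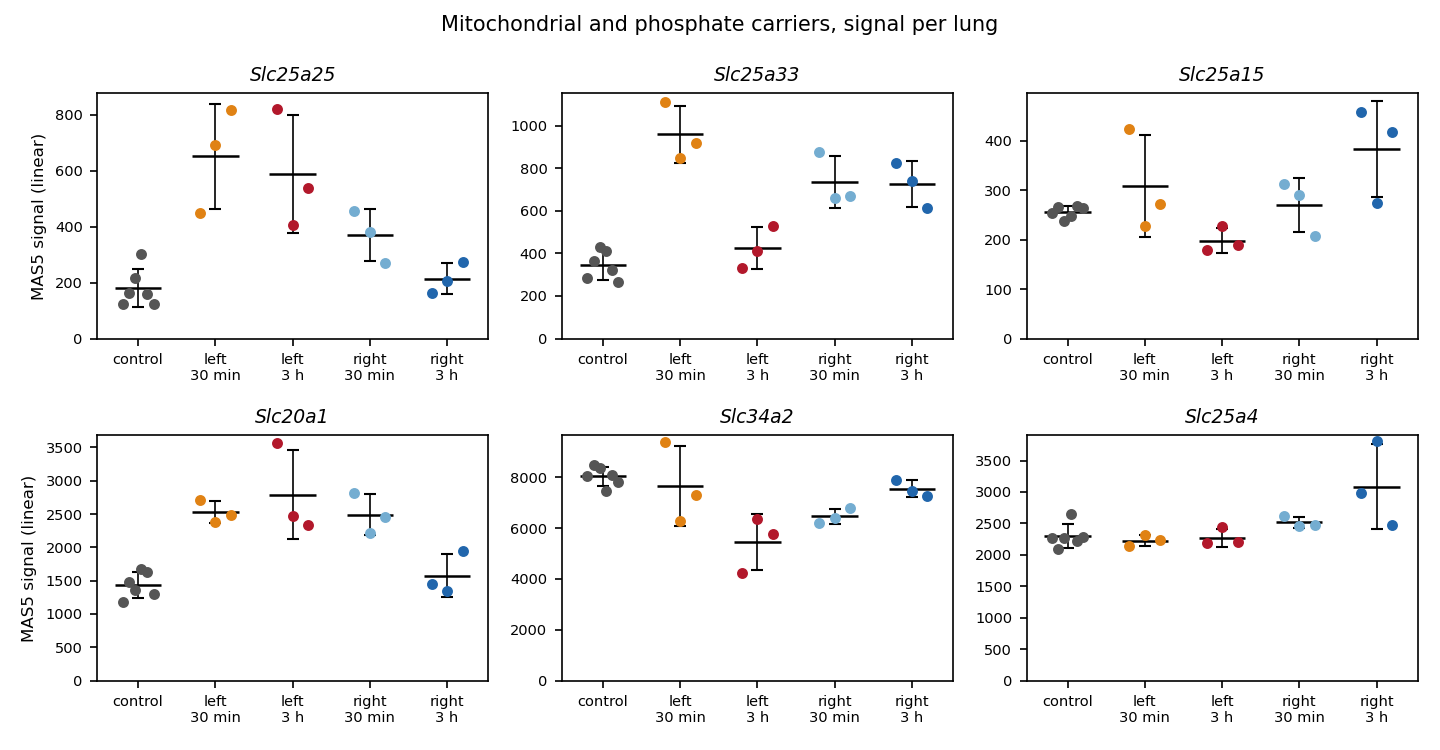
Deposited signal (linear vertical axes from 0) of 4 mitochondrial carriers and the phosphate carriers Slc20a1 and Slc34a2 in each of the 18 lungs, by group on the horizontal axis; bars are means and whiskers standard deviations over 6 control and 3 operated lungs a group. In right lungs at 3 h Slc25a25 lies within the control range, in left lungs at 3 h Slc25a33 overlaps the controls, and Slc25a15 is below them in left and above them in right lungs at 3 h.

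The 10 carriers of chloride with cations, calcium and phosphate had 1 higher and 0 lower in left lungs at 30 min, then 2 and 2 at 3 h. Right lungs had 1 and 0 at 30 min, then 0 and 0 at 3 h, on the probe set used for each gene. Slc24a3, counted as not called, was lower on another probe set, 1388221_at, in left lungs at 30 min (-0.83, adjusted p = 0.0022). That probe set was also lower at 3 h in left (-0.63, adjusted p = 0.0069) and right lungs (-0.53, adjusted p = 0.03). Slc20a1 (1370314_at), the sodium-phosphate cotransporter PiT-1 found in most cells, read 1184 to 1675 (median 1422) in controls. Left lungs gave 2705, 2384 and 2484 at 30 min and 3560.3, 2476 and 2334 at 3 h, and right lungs 2809, 2209 and 2457 at 30 min and 1445, 1337 and 1946 at 3 h. Only right lungs at 3 h overlapped the controls. The difference was 0.81 ± 0.15 (adjusted p = 0.0015) and 0.93 ± 0.15 (adjusted p = 0.00024) in left lungs, 0.79 ± 0.15 (adjusted p = 0.0028) in right lungs at 30 min and 0.12 at 3 h, which did not pass. The call in left lungs at 30 min ended without the high-actin arrays (adjusted p = 0.1). Left exceeded right lungs at 3 h by 0.81 ± 0.18 (adjusted p = 0.025). The change of the left minus right difference from 30 min to 3 h was 0.78 (adjusted p = 0.43), which did not pass.

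Slc34a2 (1368168_at), the phosphate carrier of alveolar type II cells, read 7458 to 8493 (median 8072) in controls and 4229.8, 6352 and 5791 in left lungs at 3 h, below every control. It fell there by 0.58 ± 0.13 (adjusted p = 0.0024), the group in which type II markers were lowest. At 30 min left lungs read 9394, 6292 and 7309.9, and right lungs read 6187, 6409 and 6796 at 30 min and 7917, 7468 and 7278 at 3 h. Right lungs at 30 min also lay below the controls. None of these groups passed, with differences of -0.09, -0.32 and -0.09. Slc8a1, the sodium-calcium exchanger known best from heart, read 332 to 410.1 (median 373) in controls and 199.5, 203 and 292 in left lungs at 3 h, with no overlap, and fell by 0.65 ± 0.17 (adjusted p = 0.0073). With the cardiac covariate the difference was -0.59 (adjusted p = 0.031), and without left 3 h replicate 1 the adjusted p was 0.054. Slc12a4, the potassium-chloride cotransporter KCC1, rose by 0.53 ± 0.14 (adjusted p = 0.0081) in left lungs at 3 h.

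Carriers of zinc, iron, copper and magnesium, 23 genes, held both rises and falls. Of them 4 were higher and 2 lower in left lungs at 30 min, 9 and 6 at 3 h, 3 and 1 in right lungs at 30 min, with 6 and 2 at 3 h. The shares over all genes were 8.64% and 9.52%, 13.5% and 24.1%, 5.93% and 6.33%, and 7.75% and 12.6%. With median centring the higher counts were 6, 10, 3 and 7 and the lower counts 0, 1, 0 and 1. The rises included Slc11a2 (DMT1), which takes up iron, the zinc importers Slc39a14 and Slc39a8, the magnesium carrier Slc41a2 and the vesicular zinc carrier Slc30a3. The fall that passed under both scalings was that of the zinc importer Slc39a3 in left lungs at 3 h.

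Slc30a3 (1390649_at), known for loading zinc into synaptic vesicles, read 472 to 819.5 (median 577) in controls. Left lungs gave 1403, 1332 and 1338 at 30 min and 966, 1046 and 1311 at 3 h, and right lungs 1628, 985 and 1108 at 30 min and 1036, 979.7 and 1874 at 3 h, all above every control. The difference was 1.17 ± 0.20 (adjusted p = 0.00074) and 0.87 ± 0.20 (adjusted p = 0.003) in left lungs at 30 min and 3 h. Right lungs differed by 1.01 ± 0.20 (adjusted p = 0.0033) and 1.04 ± 0.20 (adjusted p = 0.0017). The call in left lungs at 30 min ended without the high-actin arrays (adjusted p = 0.058). Slc41a2 read 125 to 238 (median 169) in controls and 488, 432 and 334 in left lungs at 3 h. It rose by 0.70 ± 0.22 (adjusted p = 0.031) and 1.13 ± 0.22 (adjusted p = 0.00077) in left lungs and by 0.77 ± 0.22 (adjusted p = 0.018) in right lungs at 3 h, with 0.33 at 30 min, which did not pass. The call in left lungs at 30 min ended under the cardiac covariate, and without control replicate 3, 4 or 6 or left replicate 1, 2 or 3, or without the high-actin arrays (adjusted p = 0.05 to 0.25), and that in right lungs at 3 h ended without right replicate 3 (adjusted p = 0.15).

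Slc11a2 (1367877_at) read 383 to 488 (median 405) in controls. Left lungs gave 592, 724 and 629.7 at 30 min and 734, 590.5 and 750.4 at 3 h, and right lungs 678, 699 and 550.1 at 30 min and 617, 746 and 735 at 3 h, with no overlap in any group. Its rise was 0.60 ± 0.12 (adjusted p = 0.002) and 0.69 ± 0.12 (adjusted p = 0.00033) in left lungs at 30 min and 3 h. The right lungs had 0.59 ± 0.12 (adjusted p = 0.0036) and 0.71 ± 0.12 (adjusted p = 0.00056). On its second probe set, 1388059_a_at, the differences were 0.16, 0.43 (adjusted p = 0.041), 0.2 and 0.39 in the order left 30 min, left 3 h, right 30 min and right 3 h. Slc39a14 (ZIP14), known to rise in acute inflammation, read 244 to 373 (median 331) in controls, 718, 603 and 557 in left lungs at 3 h and 516, 404 and 599 in right lungs at 3 h, and both groups exceeded every control. It rose by 0.91 ± 0.21 (adjusted p = 0.0031) and 0.61 ± 0.21 (adjusted p = 0.049). At 30 min its differences of 0.54 and 0.41 did not pass. The call in right lungs ended under the cardiac covariate, no filter or a pseudocount of 1, and without control replicate 1, 2, 3, 4, 5 or 6 or right replicate 1 or 3 (adjusted p = 0.051 to 0.2). Slc39a8 (ZIP8) rose by 0.58 ± 0.18 (adjusted p = 0.018) in left and 0.76 ± 0.18 (adjusted p = 0.007) in right lungs at 3 h, and the former call ended without left replicate 2 or 3 (adjusted p = 0.088 to 0.092).

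Slc39a3 read 198 to 238 (median 216) in controls and 113, 131 and 95.2 in left lungs at 3 h, and fell by 0.81 ± 0.12 (adjusted p = 8.2e-05), with no overlap. In right lungs at 3 h it fell by 0.39 ± 0.12 (adjusted p = 0.024), a call that ended under the cardiac covariate, median centring or quantile normalization, and without right replicate 2 or 3 (adjusted p = 0.051 to 0.15). Slc31a2, a copper carrier of endosomes and lysosomes, fell by 0.49, 0.45, 0.44 and 0.50 in the order left 30 min, left 3 h, right 30 min and right 3 h. It read 204 to 266 (median 247) in controls and 179.8, 159.6 and 157 in left lungs at 30 min. Of these calls only that in right lungs at 3 h passed under median centring, and under quantile normalization none did. Single arrays also ended the calls in left lungs at 30 min without left replicate 2 or 3 (adjusted p = 0.061 to 0.064) and at 3 h without left replicate 1 or 3 (adjusted p = 0.066 to 0.096). Those in right lungs ended without control replicate 2, 3, 4, 5 or 6 or right replicate 1, 2 or 3 (adjusted p = 0.058 to 0.14) at 30 min and without right replicate 2 or 3 (adjusted p = 0.055 to 0.1) at 3 h. Slc40a1 (ferroportin), the exporter of iron, read 284 to 388 (median 300.4) in controls and 171, 284 and 200.2 in left lungs at 3 h. It fell there by 0.50 ± 0.16 (adjusted p = 0.019), a call that ended under median centring or quantile normalization, and without left replicate 1 or 3 (adjusted p = 0.062 to 0.15). Its differences elsewhere were -0.26, -0.26 and -0.20. On its second probe set, 1387130_at, the differences were -0.53 (adjusted p = 0.036), -0.51 (0.027), -0.41 (0.12) and -0.54 (0.031), in the order left 30 min, left 3 h, right 30 min and right 3 h. That probe set read 270.0 to 361.8 in controls, above all lungs of both groups at 3 h. Slc30a7, a zinc carrier of the Golgi whose signal reached the minimum in 3 operated arrays and in no control, rose by 0.48 and 0.58 in left lungs at 30 min and 3 h, from a control signal of 105 to 151 (median 132). Such a gene entered the set through the lungs in which it was high. The call at 30 min ended under the cardiac covariate, a trended robust prior, no filter or a pseudocount of 100, and without control replicate 1, 2, 3, 4, 5 or 6 or left replicate 1 or 3, or without the high-actin arrays (adjusted p = 0.051 to 0.56) and that at 3 h without left replicate 1 (adjusted p = 0.12).

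The acid-base and anion class, 8 genes with Slc4a1ap counted, held 1 rise, called in all 4 groups. In it 2, 1, 0 and 1 were lower in the order left 30 min, left 3 h, right 30 min and right 3 h. Slc4a7 (1379739_at), the sodium-bicarbonate cotransporter NBCn1, which brings bicarbonate into cells, read 437 to 595 (median 538) in controls. Left lungs gave 1291, 1093 and 1150.5 at 30 min and 1551, 1093 and 1104 at 3 h, and right lungs 1108, 948 and 966 at 30 min and 914, 800.0 and 765 at 3 h, all above every control. The difference was 1.11 ± 0.13 (adjusted p = 1.8e-05) and 1.18 ± 0.13 (adjusted p = 5.7e-06) in left lungs at 30 min and 3 h. For right lungs it was 0.89 ± 0.13 (adjusted p = 0.00022) and 0.62 ± 0.13 (adjusted p = 0.0028). Left minus right at 3 h was 0.57 (adjusted p = 0.052), which did not pass. Slc4a2, the chloride-bicarbonate exchanger AE2, which carries bicarbonate out, read 894 to 1008 (median 939) in controls, 546, 725 and 719.5 in left lungs at 3 h and 682, 632 and 628 in right lungs at 3 h, with no overlap. It fell by 0.50 ± 0.10 (adjusted p = 0.001) and 0.53 ± 0.10 (adjusted p = 0.0014) there and by 0.31 ± 0.10 (adjusted p = 0.038) in left lungs at 30 min, and the last call ended under median centring, and without control replicate 1, 2, 4, 5 or 6 or left replicate 1, 2 or 3, or without the high-actin arrays (adjusted p = 0.052 to 0.17). Slc9a2, the sodium-proton exchanger NHE2, fell by 0.58 ± 0.14 (adjusted p = 0.0088) in left lungs at 30 min, where it read 115, 97.2 and 128 against 133 to 220.5 (median 186), and the call ended without left replicate 2, or without the high-actin arrays (adjusted p = 0.054 to 0.055). Slc4a4, the bicarbonate carrier NBCe1, overlapped the controls in every group, with differences from 0.03 to 0.32. Slc4a1ap was not called, with differences of 0.53, 0.07, 0.34 and 0.31.

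Of the 5 carboxylate carriers 1, 2, 1 and 2 were higher in the same order and none lower, on the probe set used for each gene. On another probe set, 1393516_at, Slc16a12 was lower in left lungs at 3 h (-0.76, adjusted p = 0.0099). Slc16a1 (1386981_at), the lactate and pyruvate carrier MCT1, read 370.4 to 450.3 (median 387) in controls, 1198, 925 and 588 in left lungs at 3 h and 709.9, 593 and 1071 in right lungs at 3 h, all above the controls. It rose by 1.07 ± 0.21 (adjusted p = 0.0011) and 0.90 ± 0.21 (adjusted p = 0.0073). At 30 min, when it read 415, 527 and 484 in left and 614, 634 and 344 in right lungs, the differences of 0.23 and 0.34 did not pass. The call in right lungs at 3 h ended without right replicate 3 (adjusted p = 0.063). Slc16a6 (MCT7), a related carrier, read 90.5 to 149 (median 127) in controls, none above 174, so it entered the set through operated lungs. Its differences were 0.70, 0.96, 0.94 and 0.62, all called, and on its other probe set, 1376267_at, they were 0.27, 0.5, 0.3 and 0.05 with no call. The call of left lungs at 30 min ended without left replicate 2 or 3, or without the high-actin arrays (adjusted p = 0.091 to 0.14), and that of right lungs at 3 h under the cardiac covariate or no filter, and without control replicate 3, 4, 5 or 6 or right replicate 2 or 3 (adjusted p = 0.053 to 0.29).

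In the class of nucleoside, nucleotide sugar and other carriers of the endoplasmic reticulum and Golgi, 11 genes, 1 was higher and 1 lower in left lungs at 30 min, then 1 and 6 at 3 h. Right lungs had 1 and 1 at 30 min, then 2 and 2 at 3 h, on the probe set used for each gene. Slc28a2 (1368227_at), the sodium-driven carrier CNT2 for adenosine and other purine nucleosides, read 209 to 300.1 (median 247) in controls. Left lungs gave 852, 753 and 710.5 at 30 min and 1399, 709 and 559.8 at 3 h, and right lungs 700.5, 354 and 602 at 30 min and 651, 658 and 598 at 3 h. All operated lungs exceeded all controls, and left replicate 1 at 3 h was the highest. The difference was 1.51 ± 0.22 (adjusted p = 0.00022) and 1.61 ± 0.22 (adjusted p = 6.2e-05) in left lungs at 30 min and 3 h. For right lungs it was 1.0 ± 0.22 (adjusted p = 0.0078) and 1.25 ± 0.22 (adjusted p = 0.001). The call in right lungs at 30 min ended without right replicate 1 (adjusted p = 0.058).

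Slc29a1 and Slc28a3, the other nucleoside carriers described here, were lower. Slc29a1 (1398295_at), the equilibrative carrier ENT1 known to clear extracellular adenosine, read 2124 to 2834 (median 2191) in controls and 1128, 1024 and 2106 in left lungs at 3 h, below every control. It fell there by 0.75 ± 0.23 (adjusted p = 0.016), and the call ended without left replicate 1 or 2 (adjusted p = 0.099 to 0.11). Right lungs at 3 h read 1541, 1742 and 1379.5, also below the controls, and its difference of -0.56 (adjusted p = 0.094) did not pass. Slc28a3 (CNT3) read 173 to 259 (median 231) in controls, 132, 118 and 124 in left lungs at 30 min and 136, 128 and 122 in right lungs at 30 min, with no overlap. It fell by 0.71 ± 0.18 (adjusted p = 0.011) and 0.67 ± 0.18 (adjusted p = 0.022) there, and by 0.49 ± 0.18 (adjusted p = 0.043) in left lungs at 3 h. The last call ended under the cardiac covariate, a trended robust prior, median centring, no filter or quantile normalization, and without control replicate 1, 2, 5 or 6 or left replicate 2, or without the high-actin arrays (adjusted p = 0.053 to 0.38), and that of left lungs at 30 min ended without the high-actin arrays (adjusted p = 0.14). In right lungs the call at 30 min ended without right replicate 1, 2 or 3, or without the high-actin arrays (adjusted p = 0.055 to 0.087).

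Slc35a1, which carries CMP-sialic acid into the Golgi, read 975 to 1079 (median 1032) in controls, 508, 666 and 846 in left and 747, 744 and 638 in right lungs at 3 h. The differences were -0.62 ± 0.14 (adjusted p = 0.0027) and -0.52 ± 0.14 (adjusted p = 0.015), with no overlap. On its second probe set, 1375254_at, they were -0.65 (adjusted p = 0.0015) and -0.19 (adjusted p = 0.34). The call in right lungs ended under the cardiac covariate, and without right replicate 3 (adjusted p = 0.051 to 0.076). On 1375254_at the gene was also lower in left lungs at 30 min (-0.62, adjusted p = 0.0045). The probe set used gave -0.2 there, which did not pass. Slc37a1 and Slc37a4, sugar-phosphate carriers of the endoplasmic reticulum, fell by 0.63 ± 0.19 (adjusted p = 0.015) and 0.54 ± 0.14 (adjusted p = 0.0055) in left lungs at 3 h. These calls ended without left replicate 1 or 2 (adjusted p = 0.07 to 0.074) for Slc37a1 and without left replicate 1 (adjusted p = 0.053) for Slc37a4. Slc37a1 also fell by 0.55 ± 0.19 (adjusted p = 0.047) in right lungs at 3 h, a call that ended under the cardiac covariate, median centring, no filter or quantile normalization, and without control replicate 1, 2, 3, 4, 5 or 6 or right replicate 2 or 3 (adjusted p = 0.06 to 0.25). Slc33a1, which carries acetyl-CoA into the endoplasmic reticulum, rose by 0.32 ± 0.09 (adjusted p = 0.014) in right lungs at 3 h, a call that ended without right replicate 2 (adjusted p = 0.066).

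Among 8 carriers of organic ions 0, 1, 0 and 1 were higher and 1, 3, 0 and 2 lower in the order left 30 min, left 3 h, right 30 min and right 3 h. Slc22a3 (OCT3), which clears monoamines, read 89.8 to 110.0 (median 99.4) in controls, 285, 224 and 129 in left lungs at 3 h and 160.4, 198 and 509 in right lungs at 3 h. Every lung of both groups lay above the controls, of which none exceeded 174, so the gene entered the set through operated lungs. The differences were 0.88 ± 0.30 (adjusted p = 0.028) and 1.17 ± 0.30 (adjusted p = 0.01), and the call of left lungs ended under the cardiac covariate, and without left replicate 1 or 2 (adjusted p = 0.086 to 0.17). That of right lungs ended without right replicate 3 (adjusted p = 0.089). Slc22a18 read 575 to 654 (median 591) in controls, and 399, 428 and 419.7 at 30 min and 319, 396 and 416 at 3 h in left lungs, all below the controls. It fell by 0.51 ± 0.10 (adjusted p = 0.0015) and 0.65 ± 0.10 (adjusted p = 9.9e-05) there and by 0.42 ± 0.10 (adjusted p = 0.0058) in right lungs at 3 h, and held these calls under both scalings. The call in left lungs at 30 min ended without the high-actin arrays (adjusted p = 0.091).

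The 8 sugar carriers held no rise that passed, and 1, 4, 1 and 1 were lower in the order left 30 min, left 3 h, right 30 min and right 3 h, of which 1, 0, 1 and 1 passed with median centring. The lower gene throughout was Slc5a1 (1369759_at), the sodium-glucose cotransporter SGLT1. It read 166 to 201 (median 179) in controls. Left lungs gave 71, 64.4 and 133 at 30 min and 100.1, 91.4 and 145 at 3 h, and right lungs 89.6, 108 and 84.9 at 30 min and 123, 144 and 67.7 at 3 h, and every operated lung lay below every control. The differences were -0.90 ± 0.19 (adjusted p = 0.0034) and -0.61 ± 0.19 (adjusted p = 0.019) in left lungs at 30 min and 3 h. Right lungs differed by -0.79 ± 0.19 (adjusted p = 0.012) and -0.64 ± 0.19 (adjusted p = 0.024). Only 3 arrays, all controls, exceeded 174, so the gene entered the set through the group in which it was high. The call of left lungs at 3 h ended under the cardiac covariate, median centring or quantile normalization, and without left replicate 1 or 2 (adjusted p = 0.062 to 0.12), and that of right lungs at 3 h without right replicate 3 (adjusted p = 0.18). Slc2a8 (GLUT8), an intracellular glucose carrier, fell by 0.70 ± 0.24 (adjusted p = 0.032) in left lungs at 3 h, a call that ended under median centring or quantile normalization, and without control replicate 2 or 4 or left replicate 1 (adjusted p = 0.051 to 0.29).

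On the probe set used for each gene, none of 13 carriers of vitamins, choline, fatty acids, haem and urea was higher. In the order left 30 min, left 3 h, right 30 min and right 3 h, 1, 6, 1 and 2 were lower. These stand beside 9.52%, 24.1%, 6.33% and 12.6% of all genes, and 0, 1, 0 and 0 passed with median centring. Slc44a1, 1 of the 2 lower in right lungs at 3 h, was called higher in all 4 groups on another probe set, given below. Slc44a2, a choline carrier of the plasma membrane and mitochondria, read 1991 to 2432 (median 2262) in controls and 1354, 1528 and 1876 in left lungs at 3 h, with no overlap. It fell there by 0.52 ± 0.14 (adjusted p = 0.0076), and without left 3 h replicate 1 the adjusted p was 0.066. In right lungs it fell by 0.43 ± 0.14 (adjusted p = 0.046) at 30 min and by 0.43 ± 0.14 (adjusted p = 0.033) at 3 h. The first of these calls ended under the cardiac covariate, median centring or no filter, and without control replicate 2, 3, 4, 5 or 6 or right replicate 1 or 2, or without the high-actin arrays (adjusted p = 0.051 to 0.29). The second ended under the cardiac covariate or median centring, and without control replicate 2, 3, 4, 5 or 6 or right replicate 2 or 3 (adjusted p = 0.051 to 0.16). Slc48a1, which carries haem out of lysosomes, fell by 0.43 ± 0.14 (adjusted p = 0.042) and 0.40 ± 0.14 (adjusted p = 0.035) in left lungs. The call at 30 min ended under the cardiac covariate, median centring or no filter, and without any single array, or without the high-actin arrays (adjusted p = 0.058 to 0.45). That at 3 h ended under the cardiac covariate, median centring, no filter or quantile normalization, and without control replicate 1, 2, 3 or 4 or left replicate 1 or 2, or without the high-actin arrays (adjusted p = 0.05 to 0.37).

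Among 10 carriers of neurotransmitters and osmolytes, 2 were higher and 0 lower in left lungs at 30 min, then 1 and 2 at 3 h. Right lungs had 0 and 0 at 30 min, then 2 and 1 at 3 h, on the probe set used for each gene. Slc6a6, counted as not called, was lower in all 4 groups on another probe set, given below. Slc6a4 (1368348_at), the serotonin transporter of lung endothelium, read 611 to 744 (median 675) in controls. It read 346, 355 and 566 in left and 334, 532 and 339.6 in right lungs at 3 h, and neither group overlapped the controls. The differences were -0.68 ± 0.21 (adjusted p = 0.02) and -0.74 ± 0.21 (adjusted p = 0.021), and that of left lungs ended under median centring, and without left replicate 1 or 2 (adjusted p = 0.062 to 0.12). The other call ended under the cardiac covariate, and without right replicate 1 or 3 (adjusted p = 0.084 to 0.097). At 30 min it read 461, 570.4 and 581 in left and 363, 414 and 825 in right lungs, and the differences of -0.32 and -0.41 did not pass. Of the 5 measured endothelial markers, 1 was called lower in left and 2 in right lungs at 3 h, beside 24.1% and 12.6% of all genes. Their mean log2 signal was 11.2 to 11.29 in controls, 10.93 to 11.16 in left and 10.94 to 11.04 in right lungs at 3 h. Their part in the fall was not tested. Slc6a9, the glycine transporter GLYT1, read 566 to 922 (median 703) in controls and 339.6, 469 and 464 in left lungs at 3 h, with no overlap, and fell by 0.73 ± 0.15 (adjusted p = 0.0015). Its left minus right difference at 3 h was -0.67 (adjusted p = 0.054), which did not pass. Slc6a20a (1369705_at), which carries proline and other imino acids, read 234 to 382 (median 295) in controls, 387, 496 and 454 in left lungs at 30 min, 412, 408 and 476 in those at 3 h and 520.0, 601 and 406 in right lungs at 3 h, with no overlap. It rose by 0.53 ± 0.16 (adjusted p = 0.025) and 0.49 ± 0.16 (adjusted p = 0.022) in left lungs and by 0.70 ± 0.16 (adjusted p = 0.0051) in right lungs at 3 h, with 0.2 in right lungs at 30 min, which did not pass. Its second probe set, 1369704_at, was not called, with differences of 0.08, -0.03, 0.27 and 0.26 in the order left 30 min, left 3 h, right 30 min and right 3 h. The call of left lungs at 30 min ended without control replicate 4 or left replicate 2 or 3, or without the high-actin arrays (adjusted p = 0.051 to 0.11), and that at 3 h without left replicate 1 or 3 (adjusted p = 0.056 to 0.081). Slc17a5 (sialin), the lysosomal sialic acid carrier, rose by 0.85 ± 0.18 (adjusted p = 0.0035) in left lungs at 30 min and by 0.56 ± 0.18 (adjusted p = 0.036) in right lungs at 3 h, and the first call ended without the high-actin arrays (adjusted p = 0.19). The second ended under the cardiac covariate or no filter, and without control replicate 1, 2, 3 or 5 or right replicate 1 or 2 (adjusted p = 0.055 to 0.18). Slc66a2, which was placed in no substrate class, was not called in any comparison, with differences of -0.06, 0.24, -0.01 and -0.06.

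**Figure D4:**
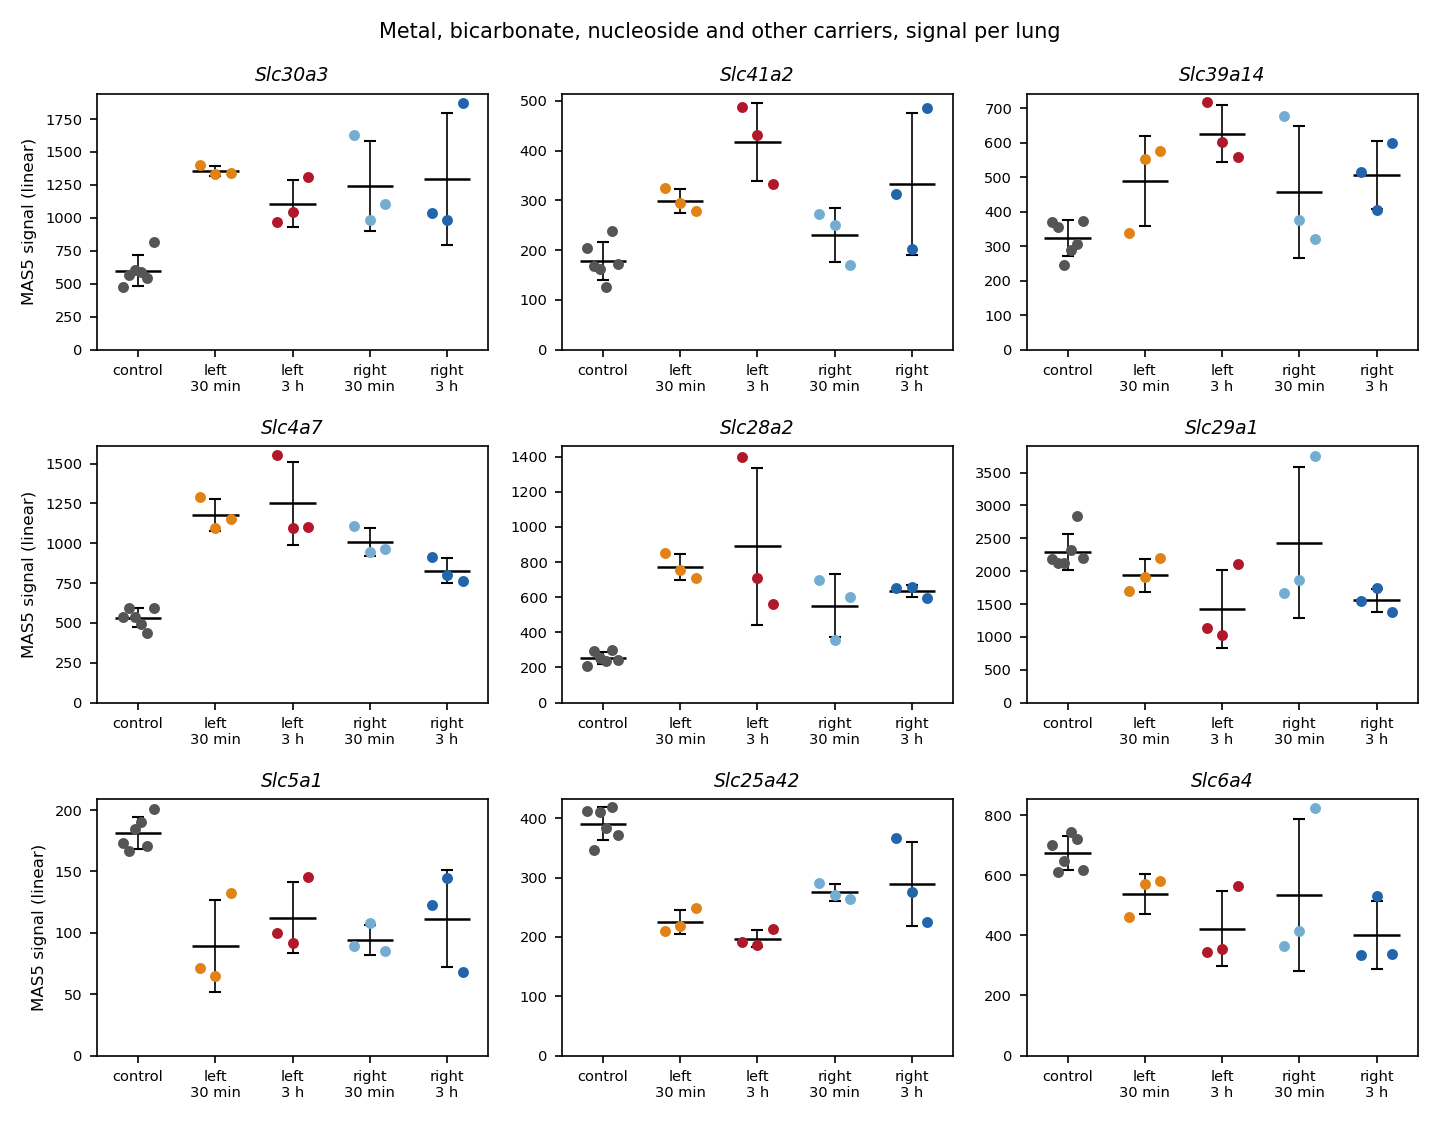
Deposited signal (linear vertical axes from 0) of 9 further carriers in each of the 18 lungs, by group on the horizontal axis; bars are means and whiskers standard deviations over 6 control and 3 operated lungs a group. Slc30a3, Slc4a7 and Slc28a2 lie above the controls in all operated lungs, Slc5a1 lies below them, and Slc29a1 has a single right lung at 30 min at 3752, above every control.

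Some genes gave different readings on different probe sets. Among the 21 carriers with more than 1 tested probe set, 34 calls against control could be set beside another probe set of the same gene. In 30 of them the other probe set differed with the same sign, and in 11 it was called the same way. Calls on another probe set alone also occurred, as for Slc24a3 and Slc35a1 above. Slc29a3 fell on 1374221_at in right lungs at 30 min (-0.44, adjusted p = 0.044) and 3 h (-0.62, adjusted p = 0.005). Slc23a2 fell on 1369378_at in left lungs at 30 min (-0.99, adjusted p = 0.034), where replicate 1, of high actin ratio, read 44.3. For Slc6a6, the taurine transporter, the probe set of highest signal, 1374531_at, read 1426 to 2063 (median 1693) in controls and overlapped them in each operated group, with differences of 0.12, 0.06, -0.18 and 0.03. Probe set 1368778_at of the same gene read 565.2 to 1006.6 in controls and 143.4 to 283.3 in the 12 operated lungs, without overlap. It fell by 1.67 (adjusted p = 1.9e-05), 1.63 (1.2e-05), 1.52 (7.2e-05) and 1.65 (2e-05). For Slc44a1, a choline carrier, 1368480_at read 386.5 to 460.5 in controls and 532.6 to 883.6 in operated lungs, and rose by 0.65 (adjusted p = 0.00065), 0.51 (0.002), 0.63 (0.0012) and 0.96 (1.6e-05). The probe set of highest signal, 1373054_at, fell by 0.37 ± 0.12 (adjusted p = 0.037) in right lungs at 3 h and was not called elsewhere. That call ended under the cardiac covariate, median centring or no filter, and without control replicate 2, 5 or 6 or right replicate 1, 2 or 3 (adjusted p = 0.053 to 0.2). Slc6a6 and Slc44a1 are therefore given without a direction, and which part of the transcript each probe set reads was not examined.

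**Figure D5:**
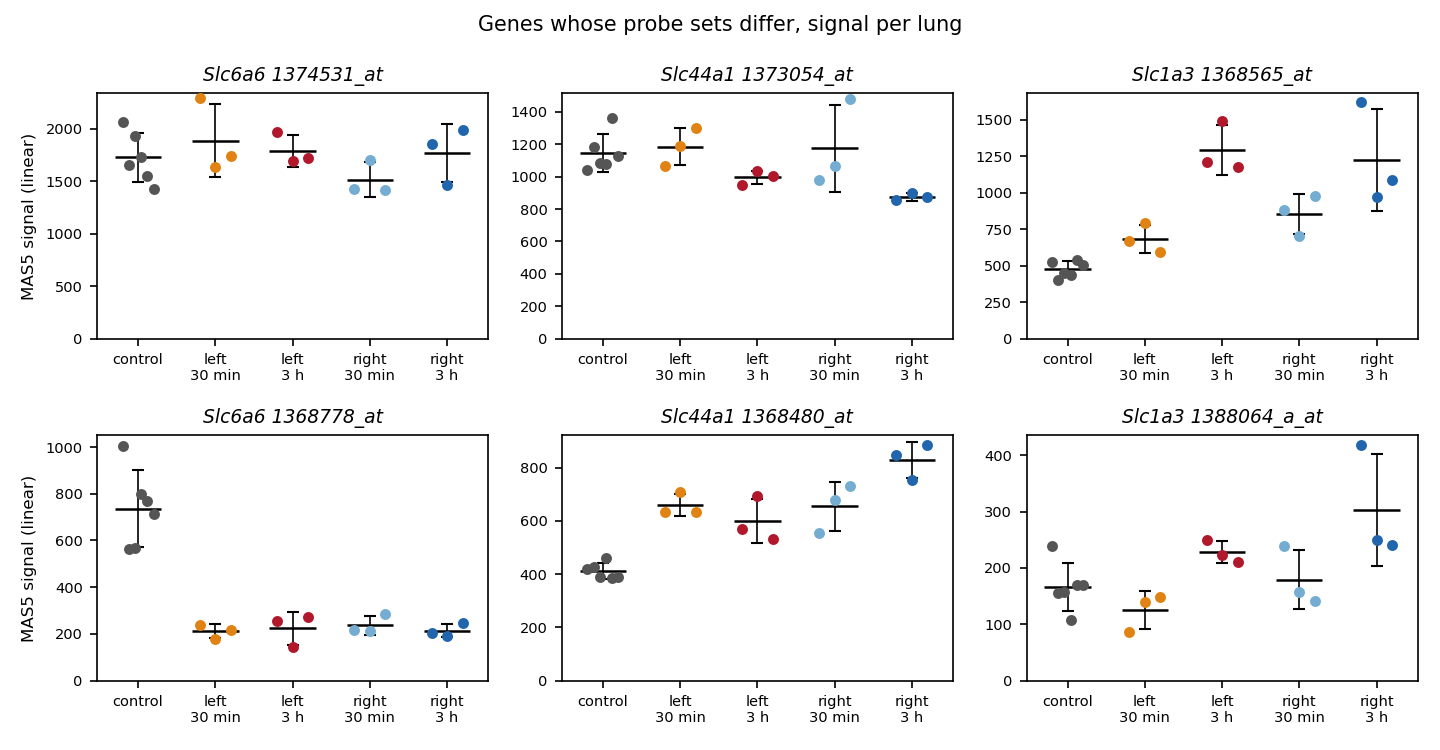
Deposited signal (linear vertical axes from 0) of 2 probe sets each for Slc6a6, Slc44a1 and Slc1a3 in each of the 18 lungs, by group on the horizontal axis; bars are means and whiskers standard deviations over 6 control and 3 operated lungs a group. The upper row holds the probe set used for the gene and the lower row another; Slc6a6 is flat above and low in all operated lungs below, and Slc44a1 is higher in operated lungs on its second probe set.

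Clamped left lungs were set against unclamped right lungs of operated rats. At 30 min, limma called 0 of the 140 carriers, with 8 at an unadjusted p under 0.05. Of all genes 0.0129% were called higher and 0.0388% lower, 0.0518% together. At 3 h an unadjusted p under 0.05 was found for 25 carriers, and by the adjusted p 2 were higher and 1 lower in left lungs, beside 1.75% and 0.621% of all genes (2.37% together). The higher genes were Slc25a25 and Slc20a1, with differences of 1.33 and 0.81. The lower gene was Slc25a15, at -0.85 ± 0.20 (adjusted p = 0.034). For each of the 3, left and right lungs did not overlap. Without left replicate 1 or without right replicate 1, 0 were called, without left replicate 3 there were 6 and without right replicate 3 there were 9. The call of Slc25a25 ended under no filter, and without left replicate 1 or right replicate 1 or 2 (adjusted p = 0.056 to 0.19). That of Slc20a1 ended under the cardiac covariate, and without left replicate 1 or right replicate 1 or 2 (adjusted p = 0.097 to 0.27). That of Slc25a15 ended under the cardiac covariate, median centring, no filter or quantile normalization, and without left replicate 1 or 3 or right replicate 1 or 3 (adjusted p = 0.055 to 0.21). With the covariate its difference was -0.93 ± 0.27, so that call ended with a larger standard error and no smaller difference. With the replicate number as a block none of the 3 passed (adjusted p = 0.19 to 0.22). The largest left minus right difference that did not pass was that of Slc7a5, 1.01 (adjusted p = 0.098).

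Within left lungs, 3 carriers were higher at 3 h than at 30 min and 1 was lower, beside 1.23% and 1.84% of all genes (3.07% together), and 24 had an unadjusted p under 0.05. Slc1a3 was higher by 0.89 ± 0.18 (adjusted p = 0.016), Slc3a2 by 0.46 ± 0.11 (adjusted p = 0.035) and Slc33a1 by 0.39 ± 0.10 (adjusted p = 0.043), and Slc25a33 was lower, as its signals show. Of the 4 genes none passed without the 3 arrays of high actin ratio, which leaves a single left lung at 30 min. The call of Slc1a3 ended without left 30 min replicate 1 or 3 or left 3 h replicate 1 or 2 (adjusted p = 0.057 to 0.076). That of Slc3a2 ended without left 30 min replicate 1 or 3 or left 3 h replicate 1 or 2 (adjusted p = 0.095 to 0.12). That of Slc33a1 ended without left 30 min replicate 1, 2 or 3 or left 3 h replicate 1 or 2 (adjusted p = 0.057 to 0.15). Slc3a2 also did not pass under quantile normalization or no filter, nor Slc33a1 under no filter or the cardiac covariate (adjusted p = 0.052 to 0.057). Without left replicate 1 or 3 at 30 min, or left replicate 1 or 2 at 3 h, 1 carrier was called, and without left replicate 3 at 3 h 9 were. Within right lungs 0 carriers were called between 30 min and 3 h by limma, with 18 at an unadjusted p under 0.05, beside 0.0129% and 0.181% of all genes (0.194% together). For the change of the left minus right difference between the times, a contrast added after the data were seen, 0 were called, with 12 at an unadjusted p under 0.05, beside 0.207% and 0.0259% of all genes (0.233% together).

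Transport proteins outside the solute carrier genes, among them ion pumps, aquaporins and organic anion transporters, were taken from a list of which 38 were measured. Against control 2 were higher and 3 lower in left lungs at 30 min, 3 and 6 at 3 h, 1 and 4 in right lungs at 30 min, with 4 and 6 at 3 h. These counts stand beside 8.64% and 9.52%, 13.5% and 24.1%, 5.93% and 6.33%, and 7.75% and 12.6% of all genes called higher and lower. Atp1b1, the beta subunit of the sodium pump whose gradient drives many solute carriers, rose from a mean signal of 2453 in controls to 4449 and 3644 in left lungs and 4644 and 5056 in right lungs at 30 min and 3 h. The rises were 0.85 ± 0.11 (SE, adjusted p = 7.6e-05), 0.57 ± 0.11 (adjusted p = 0.00098), 0.9 ± 0.11 (adjusted p = 6.2e-05) and 1.03 ± 0.11 (adjusted p = 9.9e-06). The plasma membrane calcium pump Atp2b4 fell by 1.21 ± 0.21 (SE, adjusted p = 0.00078) in left lungs at 30 min, and Atp2b1 by 0.84 ± 0.13 (adjusted p = 0.00043) in right lungs at 30 min. Atp2b4 also fell in left lungs at 3 h (-0.91, adjusted p = 0.003) and in right lungs at 30 min (-0.76, adjusted p = 0.024). Atp2b1 also fell in right lungs at 3 h (-0.65, adjusted p = 0.0021). Up to 4 called genes of the list were named a comparison, so groups not given here may hold further calls. Aqp5, the water channel of type I cells, fell by 0.8 ± 0.2 (adjusted p = 0.014) in right lungs at 30 min. There 4 of 6 type I cell markers, a list that holds Aqp5 itself, were called lower, beside 6.33% of all genes.

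Other motifs were searched in the promoters of the 120 carriers on both strands. The AP-1-like pattern TGANTCA was found in 4.17% of them and 5.08% of tested genes, and the metal response core TGCNCNC in 62.5% and 61.3%. The hypoxia response core ACGTG was found in 30.8% and 26.6%, and the NF-kB-like pattern GGGNNTTCC in 5% and 7.2%. The AP-1-like and NF-kB-like shares are of the letters as searched, which do not fully define either site. The E box CACGTG, which contains the hypoxia core, was found in 13.3% and 9.69%. Whether these shares differ was not tested.

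Some carriers lay close to the signal minimum. Of the 140, 8 exceeded 174 in only 3 to 5 arrays, and 13 did so in fewer than 3 controls. At the minimum itself were Slc17a7, Slc2a5, Slc30a7 and Slc5a1, with 3 arrays each, and just below it were Slc25a14, Slc25a23 and Slc7a12, with 2 arrays each and a highest signal of 202.1, 184.4 and 209.8. The noradrenaline transporter Slc6a2 and the cationic amino acid carrier Slc7a2 were on the array and were not kept. Slc11a1, Slc25a37, Slc7a11 and Slc5a3 were not analysed here.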

How the data were processed

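Probe set intensities from 1-colour Affymetrix rat 230A arrays of 18 lungs were used as the authors deposited them. Per the submitters' processing notes they are MAS5 signals, of a version that those notes do not state, on a linear scale with each array scaled to 1 trimmed mean. GeneSpring 7.2 is named in the series text for the later analysis. Symbols came from the platform annotation, in which 12783 probe sets had 1 symbol, 312 had more and 2771 had none. Those with 1 were named, and RefSeq, matched by Entrez identifier, altered 0 of them.

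Values were analysed as log2(signal + 25), which understates changes of low genes. The 57 control probe sets were left out, and 10533 probe sets with 3 or more arrays above 173.6, the 40th percentile, were tested with limma 3.58.1 in R 4.3.3 (lmFit and eBayes on 5 group means, two-sided, Benjamini-Hochberg adjustment over all probe sets). Figures and tables were made in Python 3.11.15 with numpy 2.4.6, pandas 2.3.3, scipy 1.17.1 and matplotlib 3.10.9. Promoters are from RefSeq on GRCr8. On simulated arrays the tests found 88.6% of 2-fold and 99.6% of 4-fold changes for left lungs at 3 h against control. For left against right at 3 h they found 80.2% and 98%, with 5.1% and 5.3% of calls false. Those arrays had independent normal noise, no shift between arrays and few changed probe sets. In the data 37.6% of genes were called in left lungs at 3 h, so these rates were not shown to hold for the real arrays.

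The carriers, their substrate classes, the gene lists and the alternatives were chosen with earlier results of these data known. Named carriers were, in each comparison with control, the 8 largest called rises and the 8 largest called falls where there were as many, 5 of each in other comparisons, the gene of smallest adjusted p in each class and a set list of carriers. From the lists of other transporters and amino acid response genes, up to 4 called genes a comparison were named. Slc11a2, Slc39a8, Slc17a5, Slc25a5, Slc44a1, Slc25a39, Slc30a7, Slc12a4, Slc1a1, Slc7a6os, Slc37a4, Slc38a10, Slc6a20a, Slc16a12, Slc24a3, Slc29a3, Slc23a2 and Slc4a1ap were named after their values were seen.

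Operated lungs of 1 group are taken to be from different rats. Whether a replicate number stands for a rat is not in the labels. Deviations from group means of same-numbered left and right lungs correlated at 0.12, 0.31 and 0.15 at 30 min and at -0.17, 0.07 and -0.15 at 3 h. Those of differently numbered lungs lay between -0.29 and 0.1 at 30 min, below every same-numbered pair. At 3 h they lay between -0.24 and 0.34, and the highest exceeded every same-numbered pair. Whether the numbers pair lungs was thus not settled. The number of arrays limits the precision. Other pseudocounts, filters, scalings, variance models, probe sets, a cardiac covariate, the replicate block and leaving out arrays were tried.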

Additional observations from a re-analysis of the deposited data

Results flagged for a closer look

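In 3 carriers a single control lung lay apart from the other 5, by a gap larger than Dixon's limit for 6 samples, which chance passes in about 1 of 20 groups. At that rate some of the many carriers examined would show such a gap by chance, so the 3 are not taken as unusual. Control replicate 5 read 2834.3 for the nucleoside carrier Slc29a1. The highest control signal was 2651.9 for the adenine nucleotide translocase Slc25a4 and 651.5 for the haem carrier Slc48a1. In left lungs against right lungs at 3 h, 3 carriers passed limma. The log2 difference was 0.81 for the phosphate carrier Slc20a1, 1.33 for the ATP-Mg carrier Slc25a25 and -0.85 for the ornithine carrier Slc25a15, with limma adjusted p of 0.025, 0.032 and 0.034, and left and right lungs did not overlap in any of the 3. None of the 3 passed with the replicate number as a block.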

How the results depend on the processing

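Counts of called carriers moved by no more than 1.5 times under most alternatives, and the exceptions follow. The share of all genes called under these alternatives was not taken. In left lungs at 30 min against control 30 were called, and 11 without the 3 arrays of high actin ratio. In right lungs at 3 h 38 were called, and 22 with the cardiac marker mean as a covariate. For left against right at 3 h, 3 were called, but 6 with a pseudocount of 100, 6 with the filter at the 60th percentile, 6 with a trended robust prior, 1 with no filter and 1 with the cardiac covariate. With the replicate block 0 were called at 3 h and 0 at 30 min, and the adjusted p of Slc20a1, Slc25a25 and Slc25a15 was 0.19, 0.19 and 0.22. For left lungs at 3 h against 30 min, 4 were called, 2 with no filter and 0 without the 3 arrays. Leaving out 1 array gave 20 to 28 in left lungs at 30 min, 28 to 63 at 3 h, 13 to 20 in right lungs at 30 min, 18 to 33 at 3 h, 0 to 9 for left against right at 3 h, 1 to 9 for left lungs between times, 0 to 0 for left against right at 30 min and 0 to 0 for right lungs between times. On the probe set of lowest signal 3 named differences changed sign, Slc1a3 in left lungs at 30 min (-0.35), Slc44a1 in right lungs at 3 h (0.11) and Slc6a20a in left lungs at 3 h (-0.03). The cause was not tested. Signals near 174 are close to background and leave little room for a fall.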
